A study of Mus musculus with 7 samples.

Results

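Rgs1, Rgs2, Rgs3, Rgs10, Rgs14, Rgs16, Rgs18 and Rgs19, 8 of the 21 RGS genes in a table of 53379 mouse genes, were followed through RNA sequencing of sorted splenic natural killer (NK) cells. They were matched by gene symbol, and all 8 were detected and passed the filter on low counts. They had been chosen by their read levels and by how far they differed between the groups in these same libraries, so their differences are given here as a description with no test. NK cells are innate lymphocytes that kill infected or transformed cells. They were taken from the spleen of C57BL/6 mice and sequenced directly ex vivo, after a sort for cells positive for CD45, NK1.1, NKp46 and CD49b and negative for CD3. One group carried a knockout of Hhex, a homeobox transcription factor (Hhex KO, n = 4), and the other was labelled only as a Cre control (n = 3). The Cre driver, the age of the mice and the number of animals behind each sample are not given in the labels. The design text calls the samples biological replicates without saying more, so the spread between them may be in part technical.

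RGS proteins are the brakes of heterotrimeric G protein signalling. A ligand-bound receptor loads GTP onto a G alpha subunit, which parts from its beta and gamma subunits, and the RGS domain speeds up GTP hydrolysis by that alpha subunit and so ends the signal. In lymphocytes, chemokine and lipid receptors signal largely through the Gi class, and RGS proteins set how strongly and for how long cells respond to them. The R4 subfamily, here Rgs1, Rgs2, Rgs3, Rgs16 and Rgs18, holds mostly small proteins with little beside the RGS domain. Rgs10 and Rgs14 belong to the R12 subfamily and Rgs19, also known as GAIP, to the RZ subfamily.

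The promoters of Rgs2 and Rgs16 are shown because both genes were lower in every Hhex KO library and because 1 of the motifs searched occurs in the first and not in the second. The RefSeq table (GRCm38.p6) matched 5 of the 8 members, with 8 start sites between them. Rgs1, Rgs14 and Rgs18 were not matched. The 250 bases upstream of each start are written in the direction of transcription, and capitals mark the half-site of the cyclic AMP response element, TGACG or its complement.
Rgs2, chr1:144004150-144004399, minus strand: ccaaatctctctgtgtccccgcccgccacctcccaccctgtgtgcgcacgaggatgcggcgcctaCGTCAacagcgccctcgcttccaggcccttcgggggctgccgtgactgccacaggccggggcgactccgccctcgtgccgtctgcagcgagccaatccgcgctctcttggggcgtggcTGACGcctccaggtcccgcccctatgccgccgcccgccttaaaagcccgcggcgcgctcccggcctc
Rgs16, chr1:153740103-153740352, plus strand: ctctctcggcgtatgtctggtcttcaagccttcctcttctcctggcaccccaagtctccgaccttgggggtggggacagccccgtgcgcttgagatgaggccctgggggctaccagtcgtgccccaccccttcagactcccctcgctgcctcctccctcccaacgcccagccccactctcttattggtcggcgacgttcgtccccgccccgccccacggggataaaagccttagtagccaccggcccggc
The Rgs2 window held this half-site 2 times, once on each strand, and the Rgs16 window 0 times. Of 32851 such windows over all genes, 17.8% held it. The search covered both strands and 3 more motifs: the AP-1 site TGANTCA (in 6.75% of all windows), the NF-kB site (0.356%) and the homeodomain core TAATTA (4.84%). None of these 3 was in any of the 8 windows, and the 7 windows other than that of Rgs2 held 0 of all 4. GC content was 72.4% in the Rgs2 window and 66.4% in that of Rgs16. These are matches of letters in a short window and are no evidence of binding.

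Library totals ran from 10589915 to 18456404 reads, and levels are given as CPM, that is reads scaled to the TMM-adjusted library size. The targeted gene, Hhex, ranged from 93.5 to 96.1 CPM across Cre control libraries and from 54.2 to 64.8 CPM across Hhex KO libraries (log2 difference, Hhex KO minus Cre control, -0.70 ± 0.10 as its standard error, adjusted p = 0.00768), so it was lower but still read in every Hhex KO library. The test was edgeR's quasi-likelihood F test over 12161 genes, with Benjamini-Hochberg adjusted p, and called genes are those below 0.05. Levels listed without library numbers follow the order of replicates 1 to 3 (Cre control) and 1 to 4 (Hhex KO). All 14 fixed NK cell markers were read in every library, and their summed level was 22458 to 27770 CPM (Cre control) and 18075 to 24309 CPM (Hhex KO). Klrb1c, Ncr1 and Itga2 encode the sort antigens NK1.1, NKp46 and CD49b, so reading them is no test of the label. With edgeR 0 of the 14 were called (2 at an unadjusted p under 0.05, 1 with DESeq2, 1 with weighted limma-voom). Of the 14, 11 had a log2 difference below 0 and 3 above. Gzmb was lower without overlap, at 1132 against 751 CPM (adjusted p = 0.0539). The Hhex KO libraries fell into pairs. The chi-square per degree of freedom over all genes was 25.9 between replicates 1 and 4 and 10.4 between replicates 2 and 3, but 62.8 to 71.5 between the pairs, against 14.4 to 16.1 within Cre control. Replicate 4 carries a sample number, 95, away from the others (20 to 28), and no label says whether it was a separate batch.

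Rgs1, Rgs2 and Rgs16 of the R4 subfamily were lower in all 4 Hhex KO libraries, Rgs10 was higher in all 4, and the other 4 members overlapped between the groups. Mean levels in Cre control were 4.61 times those of Hhex KO for Rgs1, 3.47 times for Rgs2 and 5.04 times for Rgs16, while the mean of Rgs10 in Hhex KO was 2.71 times that in Cre control. In the fit over all genes 1 member was called higher (Rgs10) and 2 lower (Rgs1 and Rgs16), against 4.56% of all tested genes called in either direction, 2.68% higher and 1.87% lower. The groups did not overlap for 1 member higher and 3 lower, against 19.3% of all tested genes, 9.37% higher and 9.98% lower. The members were chosen on this contrast, so nothing is read from these counts. The called members numbered 0 higher and 0 lower without Cre control replicate 1, Cre control replicate 3 or Hhex KO replicate 3. They numbered 0 and 1 without replicate 2 of either group. Leaving out Hhex KO replicate 1 gave 1 higher and 3 lower, and leaving out replicate 4 gave 1 of each. The share of all tested genes called in either direction also changed in these fits. It was 1.12%, 1.87% and 1.23% without Cre control replicates 1, 2 and 3 in turn. Without Hhex KO replicates 1, 2, 3 and 4 in turn it was 3.55%, 3.15%, 2.48% and 6.75%. The median log2 difference of the 8 was 0.09, with 5 above 0 and 3 below, and that of all tested genes was 0.02.

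**Figure D1:**
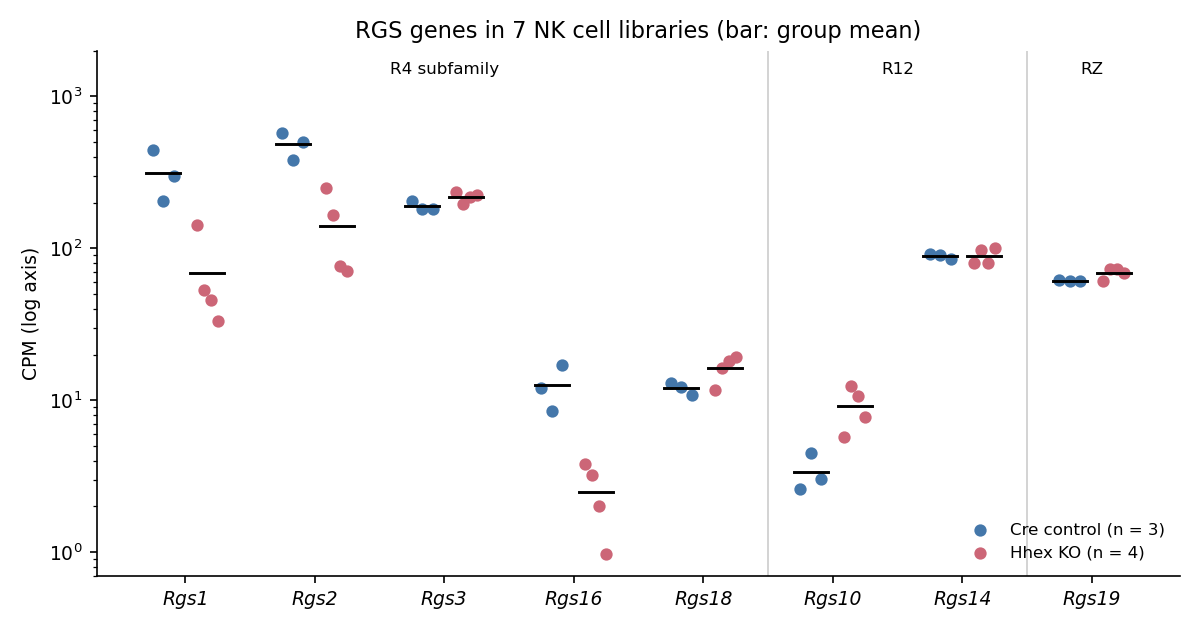
Level of each of the 8 RGS members in every library, in CPM on a log axis, with genes along the horizontal axis in their R4, R12 and RZ subfamilies, 1 point for each of the 3 Cre control (blue) and 4 Hhex KO (red) libraries and a bar at each group mean. Rgs1, Rgs2 and Rgs16 lie lower in all Hhex KO libraries, Rgs10 lies higher, and Rgs3, Rgs14, Rgs18 and Rgs19 overlap.

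Rgs1 (ENSMUSG00000026358.13, chromosome 1, 144242296 to 144249242, minus strand of GRCm38) encodes an R4 protein that damps chemokine receptor signalling in lymphocytes and is induced on their activation. The 3 Cre control libraries read 443, 204 and 300 CPM, and the 4 Hhex KO libraries 142, 52.8, 45.8 and 33.5 CPM. The groups did not overlap: the highest Hhex KO library, replicate 1, was below the lowest Cre control library. Mean levels were 316 ± 120 (SD, n = 3) against 68.5 ± 49.6 CPM (SD, n = 4), a log2 difference of -2.20 ± 0.50. The Hhex KO libraries differed among themselves by 4.24 times and the Cre control libraries by 2.17 times.

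Rgs2 (ENSMUSG00000026360.9, chromosome 1, 143999338 to 144004161, minus strand) encodes an R4 protein that acts mainly on Gq alpha subunits. It stood at 579, 384 and 503 CPM in Cre control replicates 1 to 3 and at 250, 166, 77.0 and 70.9 CPM in Hhex KO replicates 1 to 4. All Hhex KO libraries were below all Cre control libraries, with replicates 3 and 4 lowest. Means were 489 ± 98.5 (SD, n = 3) against 141 ± 84.5 CPM (SD, n = 4), and the log2 difference was -1.79 ± 0.43.

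Rgs16 (ENSMUSG00000026475.7, chromosome 1, 153740349 to 153745468, plus strand) encodes another small R4 protein of activated lymphocytes. It had 162, 97 and 317 reads in the Cre control libraries and 59, 56, 34 and 11 reads in those of Hhex KO. Scaled, these were 12.1, 8.54 and 17.1 CPM against 3.82, 3.21, 2 and 0.974 CPM. The lowest Cre control library thus lay above the highest Hhex KO library, and Hhex KO replicate 4 was lowest, as for Rgs1 and Rgs2. Means were 12.6 ± 4.32 (SD, n = 3) against 2.5 ± 1.27 CPM (SD, n = 4), with a log2 difference of -2.32 ± 0.41. An antisense gene, Gm28513, shares 236 exon bases with Rgs16. It had 6 reads in all libraries together, and since the strand setting of the counting is not given, reads of the 2 genes in those bases cannot be told apart.

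The 3 lower members shared the order of several libraries. Rgs1, Rgs2 and Rgs16 were each lowest in replicate 2 among the Cre control libraries, highest in replicate 1 and lowest in replicate 4 among the Hhex KO libraries. Relative to the Cre control mean, Rgs1 was at log2 -1.08, -2.50, -2.71 and -3.16 in Hhex KO replicates 1 to 4, Rgs2 at -0.95, -1.54, -2.64 and -2.76, and Rgs16 at -1.63, -1.87, -2.52 and -3.47. The root-mean-square (RMS) difference of their log2 CPM over the 7 libraries, each gene centred on its own mean, was 0.361 between Rgs1 and Rgs2, 0.380 between Rgs2 and Rgs16 and 0.446 between Rgs1 and Rgs16. For comparison it was 1.24 between Rgs2 and Rgs19. The measure includes the group difference by which these members were set apart, so their closeness restates that difference.

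Immediate-early and activation genes also had lower levels in Hhex KO. These are genes whose transcription starts soon after a stimulus. Of 30 such genes in a list fixed with earlier results of these data known, 29 were tested: 0 were called higher, 6 lower and 23 in neither direction (0 higher and 24 lower at an unadjusted p under 0.05, 0 and 15 with DESeq2), and 28 had a log2 difference below 0 (median -1.38, against 0.02 for all genes). The edgeR shares over all tested genes were 2.68% higher and 1.87% lower. In either direction, 18.5% had an unadjusted p under 0.05 and DESeq2 called 9%. A log2 difference below 0 was found for 5755 of the 12161 tested genes. The summed level of the listed genes was 17260, 12108 and 12843 CPM in Cre control and 6964, 6754, 3680 and 2452 CPM in Hhex KO. Among the Hhex KO libraries, 17 of the 29 were highest in replicate 1 and 12 in replicate 2, and 22 were lowest in replicate 4, the replicates in which Rgs1, Rgs2 and Rgs16 were highest (1) and lowest (4). Of all 12161 tested genes, 2556 were highest in replicate 1, 2705 were highest in replicate 2 and 4170 were lowest in replicate 4. The Cre control libraries matched less: 14 of the 29 were lowest in replicate 2, as the 3 RGS genes were, but 12 in replicate 3, and 24 were highest in replicate 1, where Rgs1 and Rgs2 but not Rgs16 were highest. Leaving out Cre control replicate 1 took the count of lower genes to 0, leaving out Cre control replicate 3 took it to 2, and leaving out Hhex KO replicate 1 took it to 13. The part of this signal in the levels of Rgs1, Rgs2 and Rgs16 was not tested.

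**Figure D2:**
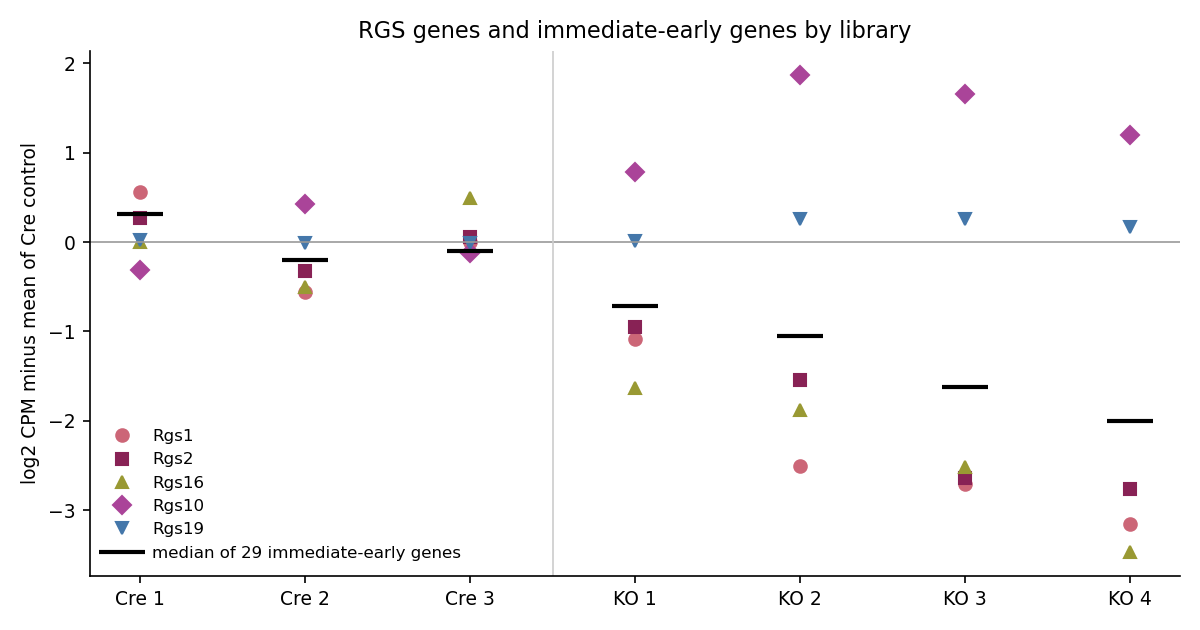
Levels of Rgs1, Rgs2, Rgs16, Rgs10 and Rgs19 and the median of 29 immediate-early and activation genes (black bars) in each of the 7 libraries on the horizontal axis, as log2 CPM minus that of the Cre control mean (0 on the vertical axis). Rgs1, Rgs2, Rgs16 and the median lie lowest in Hhex KO replicate 4, at -2.76 or below for the 3 RGS genes and -2.01 for the median, while Rgs10 is above 0 in all 4 Hhex KO libraries and Rgs19 stays near 0.

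Klf6, a zinc-finger transcription factor of the early response, fell from 771 ± 113 (SD, n = 3) to 279 ± 71.3 CPM (SD, n = 4), which is a log2 difference of -1.47 ± 0.21 (adjusted p = 0.00796). Ier5, an immediate-early gene, fell by 1.03 ± 0.17 on the log2 scale (adjusted p = 0.0123), Btg2, an antiproliferative gene, fell by 1.38 ± 0.24 (0.0148) and Jund, an AP-1 subunit, fell by 1.53 ± 0.27 (0.0180). Leaving out Cre control replicate 1 ended all 4 of these calls, at an adjusted p of 0.0506 for Klf6, 0.0639 for Ier5, 0.0767 for Btg2 and 0.0870 for Jund, which were their highest over the alternatives. Btg2 was also lost without Cre control replicate 3 and Jund without Cre control replicate 2 or 3.

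Rgs10 (ENSMUSG00000030844.11, chromosome 7, 128373621 to 128418758, minus strand) encodes a short R12 protein found in immune cells, mostly known from microglia and macrophages, that acts on Gi alpha subunits. It stood at 2.62, 4.49 and 3.03 CPM in Cre control replicates 1 to 3 (35, 51 and 56 reads) and at 5.76, 12.4, 10.7 and 7.70 CPM in Hhex KO replicates 1 to 4 (89, 217, 181 and 87 reads). Every Hhex KO library was above every Cre control library, with replicates 2 and 3 highest. Means were 3.38 ± 0.981 (SD, n = 3) against 9.14 ± 2.98 CPM (SD, n = 4), and the log2 difference was 1.45 ± 0.32.

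Markers of other cell types were not even across the libraries in which Rgs10 was read. The summed level of 12 monocyte, macrophage and neutrophil markers was 64.1, 152 and 55.1 CPM in the Cre control libraries and 98.2, 543, 36.5 and 23.6 CPM in those of Hhex KO. With edgeR 0 of the 11 tested were called (0 at an unadjusted p under 0.05, with DESeq2 or with limma-voom). Among the Hhex KO libraries, Rgs10 was at 12.4 CPM in replicate 2, which had the highest sum, and at 10.7 and 7.70 CPM in replicates 3 and 4, which had the lowest. The summed level of 9 B cell markers was 230 to 299 CPM (Cre control) and 301 to 535 CPM (Hhex KO). Of the 5 tested, Cd79b and Cd22 rose, and 3 were higher at an unadjusted p under 0.05, with DESeq2 and with weighted limma-voom. The 11 T cell markers summed to 368 to 412 CPM and 490 to 555 CPM. All 8 tested had a log2 difference above 0 (median 0.63). With edgeR 1 of them, Trbc2, was called higher, 6 were higher at an unadjusted p under 0.05, 2 with DESeq2 and 7 with weighted limma-voom. Markers of 2 further cell types gave 0 calls with edgeR, 0 genes at an unadjusted p under 0.05 and 0 with DESeq2, and weighted limma-voom called 1 dendritic cell gene: 5 tested dendritic cell markers (summed over 8, 584 to 919 CPM and 767 to 1071 CPM) and 6 tested erythroid markers (summed over 8, 5.19 to 27.2 CPM and 2.04 to 50.2 CPM). The part of these cells in the level of Rgs10 was not tested. The called markers Cd79b, Cd22, Trbc2 and Gp1bb are named here after their values were seen. In bulk samples, fewer cells of a type and less RNA per cell cannot be told apart.

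Rgs3 (ENSMUSG00000059810.18, chromosome 4, 62559847 to 62704001, plus strand) is the large, many-isoform member of the R4 subfamily. It stood at 205, 182 and 182 CPM in Cre control and at 236, 196, 217 and 224 CPM in Hhex KO. The groups overlapped, since Hhex KO replicate 2 lay below Cre control replicate 1. The log2 difference was 0.20 ± 0.11, and the highest library of each group was 1.12 and 1.20 times the lowest.

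Rgs14 (ENSMUSG00000052087.14, chromosome 13, 55369732 to 55384687, plus strand) encodes an R12 scaffold that carries Ras-binding domains and a GoLoco motif besides its RGS domain. It was the member whose group means lay closest, at 91.5, 91.1 and 85.7 CPM against 80.6, 96.9, 79.5 and 101 CPM. The Hhex KO libraries lay on both sides of the Cre control range. Its log2 difference was 0.00 ± 0.12.

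Rgs19 (ENSMUSG00000002458.13, chromosome 2, 181688419 to 181693977, minus strand) encodes an RZ protein that acts on Gi alpha subunits. Its levels were 61.9, 60.6 and 60.6 CPM in Cre control and 61.3, 72.9, 72.9 and 68.8 CPM in Hhex KO. Hhex KO replicate 1 fell inside the narrow Cre control range and the other 3 above it. The log2 difference was 0.18 ± 0.10.

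Rgs18 (ENSMUSG00000026357.3, chromosome 1, 144752683 to 144775435, minus strand) encodes an R4 protein best known from platelets and megakaryocytes. It was at 13, 12.3 and 10.9 CPM in Cre control and at 11.6, 16.4, 18 and 19.3 CPM in Hhex KO, with replicate 1 inside the Cre control range. Its log2 difference was 0.43 ± 0.19. Platelet and megakaryocyte markers had lower values in Hhex KO. Summed over 10 genes they were at 43.2, 61.9 and 63.1 CPM in Cre control and 23.5, 37.1, 26.6 and 17.8 CPM in Hhex KO, all 9 tested had a log2 difference below 0 (median -1.33), and 2 of them fell, Gp1bb among them (8 were lower at an unadjusted p under 0.05, 4 with DESeq2 and 5 with weighted limma-voom). The part of platelets in the level of Rgs18 was not tested.

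The 4 overlapping members lay close to each other in profile. This measure includes the group difference by which the members are sorted here, so closeness within a set and distance between sets restate that difference. The RMS difference was 0.149 between Rgs14 and Rgs19, 0.150 between Rgs3 and Rgs19 and 0.276 between Rgs3 and Rgs18. For Rgs10 it was 0.586 to Rgs18, its nearest member, and 2.09 to Rgs1, its farthest.

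Neighbouring members did not all share a pattern. Rgs2, Rgs1 and Rgs18 lie in this order on the minus strand of chromosome 1 within 776 kb. The start of Rgs1 is 245.1 kb and that of Rgs18 771.3 kb from the start of Rgs2. This stretch holds 8 annotated genes, of which those 3 passed the filter. Between them lie Rgs13, with 1 read in all libraries together, and Rgs21, with 0 reads. Rgs18, the outermost of the 3, overlapped between the groups, whereas Rgs1 and Rgs2 did not. Rgs16 lies 8.96 Mb beyond the start of Rgs18.

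Levels of different genes were compared per length, as CPM per kilobase of merged exons (GENCODE M21). In Cre control Rgs2 led, at 135 ± 27.2 CPM per kilobase (SD, n = 3; 106 to 160), and Rgs1 followed at 45.4 ± 17.3 (29.4 to 63.8). Rgs19 came next at 27.4 ± 0.329 (27.2 to 27.8), then Rgs14 at 21.1 ± 0.762 (20.2 to 21.6) and Rgs3 at 17.6 ± 1.20 (16.9 to 19.0). Rgs18 (5.95 ± 0.532), Rgs16 (5.39 ± 1.85) and Rgs10 (1.97 ± 0.573) were lowest. Library ranges overlapped only for the neighbours Rgs18 and Rgs16.

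In Hhex KO the order changed in the middle and at the bottom. Rgs2 still had the highest mean, at 38.8 ± 23.3 CPM per kilobase (SD, n = 4), but its range of 19.6 to 68.8 now overlapped with Rgs19 at 30.9 ± 2.45 (27.5 to 32.7), Rgs14 at 21.1 ± 2.62 (18.7 to 23.9) and Rgs3 at 20.2 ± 1.55 (18.1 to 21.8). Rgs1, at 9.86 ± 7.14 (4.82 to 20.4), went from the second to the fifth place by mean, reached into the ranges of Rgs3, Rgs14 and Rgs2 with replicate 1, and overlapped with Rgs18 at 8.03 ± 1.66 (5.71 to 9.51) and Rgs10 at 5.34 ± 1.74 (3.37 to 7.27). Within single Hhex KO libraries Rgs2 was 3.22 to 6.01 times Rgs1, so their ranges overlapped only across libraries. Against Rgs19, Rgs2 was 2.5, 1.4, 0.649 and 0.634 times as high in Hhex KO replicates 1 to 4. Rgs16 took the lowest place from Rgs10, at 1.07 ± 0.542 (0.417 to 1.63), below every library of the others. With the length of the longest transcript, Rgs3 and Rgs19, both at 40.4 CPM per kilobase in Cre control, came before Rgs14 at 37.6. With that length in Hhex KO, Rgs2 at 46.6, Rgs3 at 46.4 and Rgs19 at 45.7 were close to level, and Rgs10 at 10.4 came before Rgs18 at 8.03.

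Summed over the 8 members, the level was 305, 213 and 261 CPM per kilobase in the Cre control libraries and 168, 144, 115 and 114 in those of Hhex KO. Rgs1 and Rgs2 made up 73.3%, 63.4% and 69.8% of that sum in the Cre control libraries and 53.0%, 37.1%, 24.1% and 21.3% in those of Hhex KO. All Hhex KO libraries had a lower sum and a lower share than all Cre control libraries. With these 2 genes in the sum, the difference restates theirs.

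**Figure D3:**
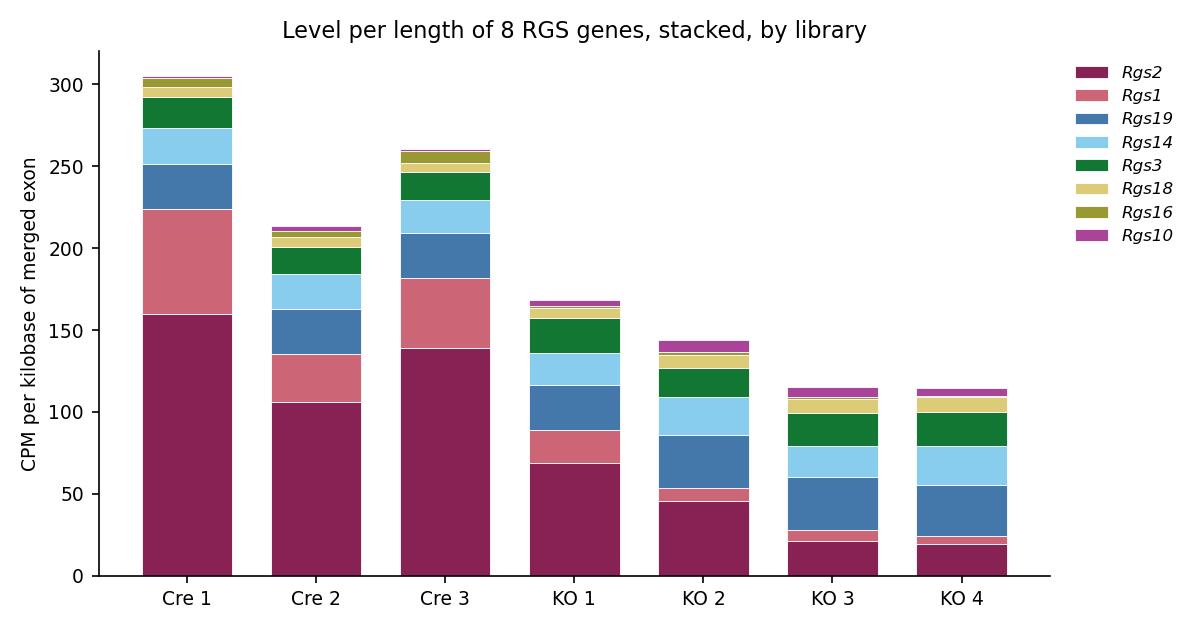
Level per length of the 8 RGS members in each of the 7 libraries, in CPM per kilobase of merged exons, stacked so that the height of a bar is their sum. The sum is 213 to 305 in the 3 Cre control libraries and 114 to 168 in the 4 Hhex KO libraries, and the segments of Rgs2 and Rgs1 at the base shrink while those of Rgs19, Rgs14 and Rgs3 stay of similar height.

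Of the 13 other RGS genes, 2 passed the filter, and 10 of the 21 RGS genes had fewer than 20 reads over all libraries, 5 of them none. Rgs9 (ENSMUSG00000020599.13, chromosome 11), an R7 protein known from photoreceptors and striatal neurons, was close to absent from Cre control and higher in every Hhex KO library. It had 2, 0 and 4 reads in the Cre control libraries and 50, 25, 26 and 29 reads in those of Hhex KO, and it passed the filter on low counts only through the latter, so its test with the filter is not free of that choice. The ratio of the summed reads, 130 against 6, scaled by library size, was 15.3 (95% exact binomial interval 6.85 to 42.5, counting error only), and the adjusted p was 0.0126 with the filter and 0.000304 with no filter. The call was lost without Cre control replicate 1 or replicate 3, and adjusted p ranged from 2.43e-05 to 0.0827 over the alternatives. Gnb5, the G beta subunit that R7 proteins bind, had a log2 difference of 0.23 ± 0.16 (adjusted p = 0.535). Rgs12, the third R12 gene, was at 8.36 ± 1.42 (SD, n = 3) against 10.6 ± 1.97 CPM (SD, n = 4), with a log2 difference of 0.34 ± 0.20 (adjusted p = 0.425).

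In the machinery around the RGS proteins, calls fell mostly on receptors, in lists chosen with earlier results of these data known. Of 108 tested genes in 8 lists of the pathway (the 2 other RGS genes included), 9 rose and 4 fell. Over all tested genes edgeR called 2.68% higher and 1.87% lower. Among the 9, Rgs9, Ptger3 and Ccr10 passed the filter on low counts only through Hhex KO, so their calls are not free of that choice. The pathway counts dropped to 4 and 1 without Cre control replicate 1, 5 and 1 without replicate 2 and 3 and 2 without replicate 3. Where a list had 0 calls by edgeR, limma-voom also gave 0, and the counts at an unadjusted p under 0.05, with DESeq2 and with limma-voom under sample quality weights (weighted) are given. Over all tested genes these 3 rules took 18.5%, 9% and 23.5%, and limma-voom without weights took 4.77%.

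Of 13 G alpha subunits, the direct targets of RGS proteins, 9 were tested and 0 were called by edgeR (1 at an unadjusted p under 0.05, 1 with DESeq2, 3 weighted), and the median log2 difference was -0.05. Gnai2, the main Gi alpha subunit of lymphocytes, was at 907 ± 62.3 (SD, n = 3) against 876 ± 214 CPM (SD, n = 4), a log2 difference of -0.05 ± 0.20 (adjusted p = 0.939). The gene with the smallest p was Gna15, a Gq-class subunit of blood cells, at 0.47 ± 0.12 (adjusted p = 0.0639). Of 16 beta and gamma subunits, 9 were tested and Gng11 alone was called by edgeR, as lower (median -0.03). Gng11, a gamma subunit abundant in platelets, was at 4.87, 5.02 and 4.27 CPM in Cre control and 1.62, 1.55, 1.41 and 0.531 CPM in Hhex KO (log2 difference -1.85 ± 0.34, adjusted p = 0.0204). The call was lost without any 1 of the Cre control libraries (adjusted p up to 0.0949). The summed level of the platelet markers given beside Rgs18 was also lower in every Hhex KO library. Of the 9 tested, 6 were lower without overlap, against 9.98% of all tested genes. The part of platelets in the level of Gng11 was not tested.

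Among 9 other proteins with an RGS-homology domain, such as the RhoA exchange factor Arhgef1, 0 were called by edgeR (1 at an unadjusted p under 0.05, 0 with DESeq2, 3 weighted; median 0.01). Of 5 tested modulators of G alpha subunits that carry GoLoco motifs or load GTP, 0 were called (1 at an unadjusted p under 0.05, 1 with DESeq2, 2 weighted; median -0.14). Gpsm2, the spindle-orientation protein LGN, had the largest difference of these, a log2 difference of 1.48 ± 0.43 (adjusted p = 0.102). Receptor kinases and arrestins, which switch off the receptor, gave 0 calls among 7 tested (1 at an unadjusted p under 0.05, 0 with DESeq2, 2 weighted; median -0.04). Of 27 tested effectors, among them adenylyl cyclases, phospholipases and phosphodiesterases, 0 were called (3 at an unadjusted p under 0.05, 1 with DESeq2, 3 weighted; median -0.03).

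**Figure D4:**
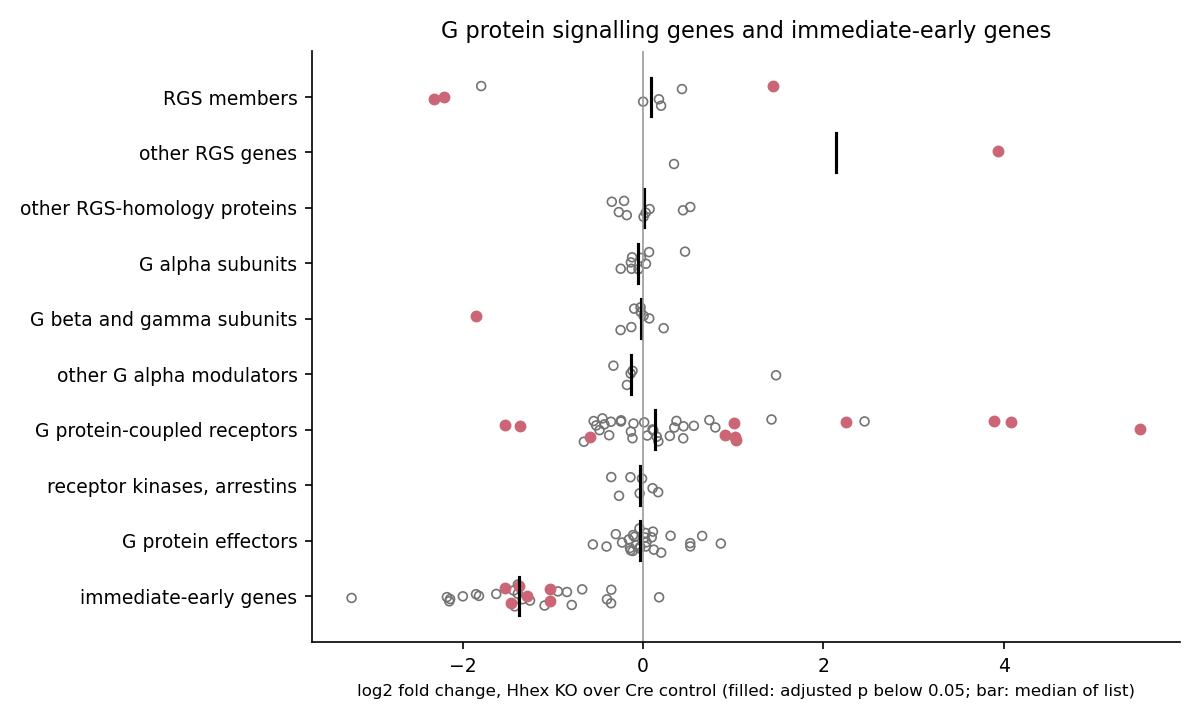
Log2 fold change (the log2 difference, Hhex KO over Cre control, horizontal axis) of every tested gene in each list, with 1 row per list, filled points for genes called by edgeR, open points for the others and a bar at the list median; the vertical scatter within a row only separates points. G alpha subunits, effectors, kinases and arrestins lie around 0, receptors spread from -1.52 to 5.51, and immediate-early genes lie below 0 with 1 exception.

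G protein-coupled receptors of lymphocytes moved in both directions: 8 of 40 tested rose, 3 fell and 29 were not called (median 0.13). Over all tested genes 2.68% were called higher and 1.87% lower. The 4 called receptors with the smallest p were higher in Hhex KO. Cxcr6, the receptor for CXCL16, rose from 3.91 ± 1.35 (SD, n = 3) to 175 ± 34.4 CPM (SD, n = 4), which is a log2 difference of 5.51 ± 0.29 (adjusted p = 3.83e-05). Gpr34, a lysophosphatidylserine receptor, rose from 2.11 ± 0.475 (SD, n = 3) to 9.97 ± 1.66 CPM (SD, n = 4), by 2.25 ± 0.23 (adjusted p = 0.00147). Cx3cr1, the fractalkine receptor, rose from 124 ± 11.9 (SD, n = 3) to 249 ± 26.5 CPM (SD, n = 4), by 1.00 ± 0.13 (adjusted p = 0.00475). These 3 kept their calls in every alternative run for them. Ptger3, a prostaglandin E2 receptor, had 2, 0 and 2 reads in the Cre control libraries and 21, 33, 21 and 16 in those of Hhex KO, a scaled ratio of 16.1 (95% exact binomial interval 6.07 to 60.3, counting error only; adjusted p = 0.00825). It too passed the filter only through Hhex KO, and its adjusted p was 0.000628 with no filter. It was lost without Cre control replicate 3 (adjusted p = 0.0670). Ccr10, S1pr1, Gpr183 and P2ry14 were the other higher receptors, of which Ccr10, with 2, 0 and 0 reads against 11, 22, 22 and 4, likewise passed the filter only through Hhex KO, and Ccrl2 and S1pr5 were among the lower ones; these 6 are named because they were called, after their values were seen.

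The genes whose profile over the 7 libraries was closest to that of the 2 members with the largest differences and of the highest member were sought among 9337 tested genes. The measure was the RMS difference of centred log2 CPM, and its median over those genes was 1.33 for Rgs16, 1.36 for Rgs1 and 0.797 for Rgs10. Closest to Rgs1 was Tnfaip3, which encodes the NF-kB inhibitor A20, at 0.197. Its levels were 1137, 548 and 935 CPM in Cre control and 510, 154, 106 and 105 CPM in Hhex KO, so it was lowest in Cre control replicate 2 and highest in Hhex KO replicate 1, as Rgs1 was. Ppp1r15a, a stress-response phosphatase subunit (0.351), and Vegfa (0.379) came next. Tnfaip3 and Ppp1r15a are also on the list of immediate-early and activation genes.

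Closest to Rgs16 were Hes1, a Notch-responsive repressor (0.387), and the chemokine genes Ccl4 (0.413) and Ccl3 (0.428). Ccl4 was at 818, 539 and 478 CPM in Cre control and 137, 151, 86.7 and 45.3 CPM in Hhex KO. Closest to Rgs10 was Ctss, the protease cathepsin S, at 0.162, with 37.4, 55.2 and 44.4 CPM in Cre control and 95.7, 146, 129 and 95.1 CPM in Hhex KO. Stmn1, a microtubule regulator (0.199), and Tpbgl (0.222) followed. These genes were picked for a likeness that includes the group difference, so their own differences add nothing to those of the members.

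The direction of the 4 members whose groups did not overlap held when the processing changed. Leaving out libraries could not reverse it, since every Hhex KO library lay on the same side of every Cre control library. The log2 difference ran from -2.85 to -1.84 for Rgs1, from -2.23 to -1.57 for Rgs2, from -2.59 to -2.03 for Rgs16 and from 1.00 to 1.77 for Rgs10 over 16 or 17 alternatives. With only Hhex KO replicates 2 and 3 kept, Rgs1 stood at -2.69, Rgs2 at -2.02, Rgs16 at -2.29 and Rgs10 at 1.77. With only replicates 1 and 4 kept, they stood at -1.84, -1.60, -2.34 and 1.00.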

How the data were processed

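RNA from sorted splenic NK cells of 4 Hhex KO and 3 Cre control samples was sequenced as single-end reads with a directional kit, per the labels' protocols. The authors deposited raw read counts per gene, not normalized. STAR, featureCounts and mm10 are named in the submitters' processing notes, and the strand setting used in counting was not stated. The gene name table covered 99.8% of the 53379 identifiers when versions were dropped and 94.8% when kept. Coordinates are GENCODE M21 on GRCm38 (mm10), 1-based.

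edgeR 4.0.16 in R 4.3.3 (minimum count 10, minimum total 15, TMM scaling, robust quasi-likelihood F test, no covariate) was fitted on all 7 libraries, with Benjamini-Hochberg values over 12161 genes and a threshold of 0.05. The standard error is the log2 fold change divided by the square root of F. Profiles used log2 CPM with a prior count of 2. The procedure was tested on counts simulated from these libraries. It recovered 7 of 67 genes changed 1.5-fold, 41 of 67 changed 2-fold and 59 of 66 changed 4-fold. Of the genes it called, 4.46% had not been changed. Small differences in genes that were not called could thus have been missed. Library totals, 10589915 to 18456404, set the counting precision.

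The 8 members and the gene lists were chosen with earlier results of these data known. Named genes follow a rule: all members; tested RGS genes; from each list every called gene, or the 4 with the smallest p where more than 5 were called; and the 3 genes, at average log2 CPM 2 or above, nearest in profile to each of 3 members. Alternatives covered scaling (RLE, upper quartile), filtering (none, or 10 CPM in 3 libraries), DESeq2 1.42.0, limma-voom of limma 3.58.1 (plain or with sample quality weights), a replicate block, leaving out each library, and other transcript lengths. Leaving out Hhex KO libraries in pairs, CCDS lengths and the counts of immediate-early genes under each alternative were added after seeing the data. The values of some genes on these lists are not reported here.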

Additional observations from a re-analysis of the deposited data

Results flagged for a closer look

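Among 28 genes checked in the 4 Hhex KO libraries (the members and the genes named by rule), 1 had a library far from the others. Tnfaip3, the gene nearest to Rgs1 in profile, stood at 510 CPM in Hhex KO replicate 1 and at 105 to 154 CPM in the other 3. The gap to the nearest was 0.88 of the whole range, above Dixon's critical value for 4 samples. Chance alone gives such a gap in about 1 group in 20.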

How the results depend on the processing

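Calls moved more than directions, though for the members without overlap leaving out libraries could not change the direction. Over 17 alternatives Rgs1, Rgs2, Rgs3, Rgs18 and Rgs19 kept the sign of their log2 fold change, as did Rgs10 and Rgs16 over 16 (the stricter filter removed both); Rgs14, near 0, kept it in 10 of 17. Members called, higher and lower, were 1 and 1 with no filter, 0 and 0 with the stricter filter, 1 and 3 with DESeq2, 0 and 3 with limma-voom, 2 and 3 with sample quality weights and without Hhex KO libraries 1 and 4 together, and 0 and 1 without libraries 2 and 3 together. Over all genes, calls were 186 and 183 with the stricter filter, 625 and 469 with DESeq2, 1534 and 1325 with sample quality weights, 1754 and 1790 without Hhex KO libraries 1 and 4, and 548 and 331 without 2 and 3. Pathway genes gave 5 and 3, 14 and 10, 17 and 22, 17 and 20, and 8 and 7 in that order. Immediate-early genes called lower were 15 with DESeq2, 24 with sample quality weights and 13 without Hhex KO libraries 1 and 4. Leaving out 1 library at a time gave 91 to 527 higher and 50 to 291 lower genes, 0 to 1 and 0 to 3 members, 3 to 11 and 1 to 5 pathway genes, and 0 to 13 lower immediate-early genes. With the longest transcript the summed level was 349 CPM per kilobase in Cre control and 208 in Hhex KO, with 61.2% from Rgs1 and Rgs2 in Cre control; with the longest CCDS transcript the sums were 378 and 214.

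Same-numbered libraries deviated together with correlations of 0.326, 0.479 and -0.031, and not every library correlated best with its own number, so the numbers were not taken to pair samples. With the replicate block, on 6 libraries, 499 genes were higher and 275 lower, 1 member was higher and 3 lower, and 19 immediate-early genes were lower. RLE and upper-quartile scaling moved no count by over 1.5 times. Rgs16 rests on 11 to 317 reads per library, which limits its precision.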
